A study of Mus musculus with 6 samples.

Results

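The genes described here encode the signalling part of the T cell receptor and the proteins that act directly beside it. They were chosen by name as the CD3 chains *Cd3d*, *Cd3e*, *Cd3g* and *Cd247*, the coreceptors *Cd4*, *Cd8a* and *Cd8b1*, and the proximal kinases *Lck* and *Zap70*. All 9 were found by symbol among the 56262 genes counted, and all 9 were among the 17120 genes with enough counts to be tested. Untreated mice of 8 weeks were used, 3 of them *R/R* and 3 of them WT littermates, and their lung RNA was sequenced with 150 bp paired-end reads. The *R/R* genotype is homozygous for the RBM47 K329R;K332R knock-in, made on the C57BL/6 background by CRISPR/Cas. The substitutions are in the germline, so they are present in lung cells and blood cells alike. In the 6 lungs, between 16501092 and 18141067 read pairs were counted on genes, so that 1 read pair is worth 0.0552 to 0.0607 CPM (read pairs scaled to a common library size by TMM).

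The αβ T cell receptor binds peptide on MHC molecules but has no signalling tail of its own, and relies on the CD3 γ, δ and ε chains and on the ζ chain encoded by *Cd247*. CD4 or CD8 binds the same MHC molecule and carries the kinase LCK, which phosphorylates the CD3 and ζ tails. ZAP-70 then docks on the phosphorylated tails and passes the signal to the adaptor LAT. Mature T cells carry either CD4, which binds MHC class II, or CD8, which binds MHC class I, so *Cd4* and the *Cd8* genes mark separate T cell lineages that share the CD3 chains and both kinases. In lung RNA, fewer T cells and less mRNA per T cell cannot be told apart.

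The RefSeq promoter table (GRCm38.p6) held entries for 7 of the 9 genes. Windows of 250 bases before the start of transcription are shown for *Cd8a* and *Cd3d*, the coreceptor gene and the CD3 gene with the lowest log2 fold changes, and for the upstream promoter of *Lck*, the member with the highest level per length. The *Cd8a* window is chr6:71373177-71373426 on the plus strand, the *Cd3d* window is chr9:44981536-44981785 on the plus strand, and the *Lck* window is chr4:129573642-129573891 on the minus strand. Capitals mark matches on either strand to the core motifs of factor families known from T cell development. The letters searched were AGGAAG for the ETS family, CTTTGA for the TCF family, TGTGGT for the RUNX family, and for the GATA family the letters AGATAA. No matches overlapped.

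Cd8a: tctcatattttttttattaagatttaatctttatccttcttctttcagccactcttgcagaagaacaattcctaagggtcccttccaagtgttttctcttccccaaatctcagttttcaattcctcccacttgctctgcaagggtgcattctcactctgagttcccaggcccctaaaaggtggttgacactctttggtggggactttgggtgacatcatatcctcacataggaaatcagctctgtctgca
Cd3d: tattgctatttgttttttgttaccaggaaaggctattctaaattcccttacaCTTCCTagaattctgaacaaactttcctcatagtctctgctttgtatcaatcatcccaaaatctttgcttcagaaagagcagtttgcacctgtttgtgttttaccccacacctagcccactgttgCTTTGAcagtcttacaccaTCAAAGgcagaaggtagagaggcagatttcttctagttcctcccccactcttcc
Lck: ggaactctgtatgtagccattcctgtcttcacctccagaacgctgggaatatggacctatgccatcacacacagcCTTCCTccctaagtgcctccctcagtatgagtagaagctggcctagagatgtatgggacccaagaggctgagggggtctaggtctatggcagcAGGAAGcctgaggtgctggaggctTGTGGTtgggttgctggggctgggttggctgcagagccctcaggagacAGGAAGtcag

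The *Cd3d* window holds 1 ETS motif at -198 and 2 TCF motifs at -73 and -54 from the start. The *Lck* window holds 3 ETS motifs and 1 RUNX motif. In the *Cd8a* window none of these letters were found, which says nothing about binding of these factors elsewhere. The 7 matched genes have 10 windows, since *Lck* and *Zap70* have several promoters each. The ETS motif occurs in 7 of the 10 windows (5 genes), beside 29.5% of all 32851 promoters of this length. The TCF motif occurs in 2 of the 10 windows, beside 13.8% of all promoters, the RUNX motif in 2, beside 14.0%, and the GATA motif in 1 (*Cd3g*), beside 9.99%. These are matches of letters only. *Cd3g* and *Cd3d* lie head to head on chromosome 9, with starts 1355 bp apart, and *Cd3e* lies beside them.

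All 9 genes had lower mean levels in *R/R* than in WT lungs. None of the 9 passed an adjusted p of 0.05 (edgeR, adjusted over the whole table), where 300 genes (1.75%) passed, 189 of them (1.10%) lower in *R/R* lungs. At an unadjusted p of 0.05, 5 of the 9 were lower (*Cd3d*, *Cd8a*, *Cd8b1*, *Lck* and *Zap70*), beside 7.68% of all genes. In 7 of the 9, the highest *R/R* lung was below the lowest WT lung, beside 9.50% of all genes. The median log2 fold change of the 9 was -0.42, beside 0 over all genes tested. Limma-voom called 0 of the 9, beside 251 of all genes (1.47%), and DESeq2 called 2, *Cd8a* and *Cd8b1*, beside 541 of all genes (3.16%). The 9 genes are not independent readings, since they come from the same cells of the same lungs. The lowest fold changes were those of the *Cd8* genes, and the one nearest 0 was that of *Cd4*.

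**Figure D1:**
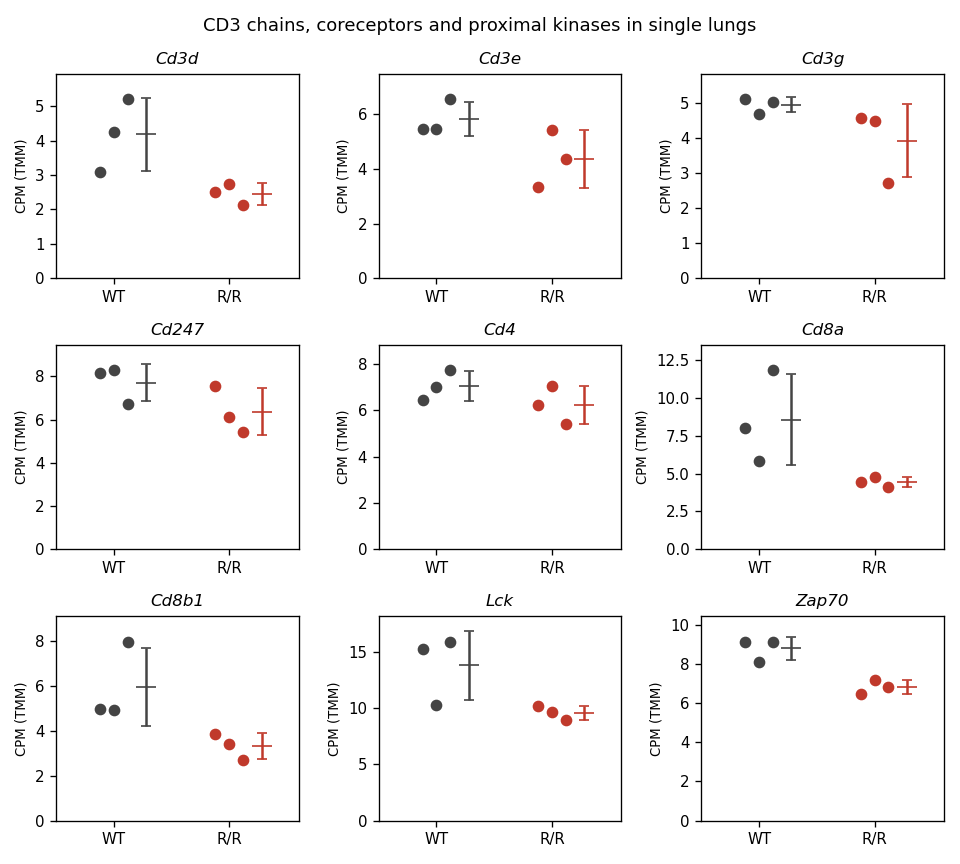
Level of each of the 9 genes in each lung, in TMM-scaled CPM (y axis, from 0, with its own range for each gene), for WT lungs (grey) and R/R lungs (red). Points are single lungs and bars give the mean and SD of 3 lungs. Cd247 and Cd4 are the 2 genes in which the genotypes overlap.

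The CD3 chains are described first. *Cd3d* encodes CD3δ and lies at chr9:44981786-44987339 (GRCm38, plus strand). Its levels were 2.5, 2.75 and 2.12 CPM in *R/R* lungs 1, 2 and 3 and 3.10, 4.25 and 5.21 CPM in WT lungs 1, 2 and 3. The genotypes did not overlap, and WT lung 1 was the nearest to the *R/R* lungs. The log2 fold change was -0.77 (standard error 0.24, 95% interval -1.29 to -0.25), with an adjusted p of 0.154 in edgeR's test.

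*Cd3e* encodes CD3ε, which pairs with both CD3δ and CD3γ, and lies at chr9:44998740-45009627 (minus strand). Its levels were 3.33, 5.44 and 4.36 CPM in *R/R* lungs and 5.47, 5.46 and 6.56 CPM in WT lungs. *R/R* lung 2 stood at the level of WT lungs 1 and 2, so that the gap between the genotypes was less than the worth of 1 read pair. In edgeR the log2 fold change was -0.42 (standard error 0.20, 95% interval -0.86 to 0.02), with an adjusted p of 0.384.

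*Cd3g*, which encodes CD3γ, lies at chr9:44969572-44980431 (minus strand). It was measured at 4.55, 4.48 and 2.71 CPM in *R/R* lungs and at 5.10, 4.69 and 5.03 CPM in WT lungs. *R/R* lung 3 was well below the other 5 lungs, and *R/R* lungs 1 and 2 were close to WT lung 2. This gave a log2 fold change of -0.33 (standard error 0.21, 95% interval -0.80 to 0.13) and an adjusted p of 0.537 by edgeR. Without *R/R* lung 3 it was -0.13.

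*Cd247* encodes the ζ chain, which also serves natural killer (NK) cell receptors, and lies at chr1:165788681-165877277 (plus strand). Its levels were 7.55, 6.10 and 5.42 CPM in *R/R* lungs and 8.14, 8.28 and 6.73 CPM in WT lungs. *R/R* lung 1 was above WT lung 3, so the genotypes overlapped (p = 0.2 by exact two-sided permutation, which can reach 0.1 at the lowest with 3 lungs a genotype). The log2 fold change was -0.28 (standard error 0.17, 95% interval -0.64 to 0.09), with an adjusted p of 0.505 by edgeR. The authors' counting used no strand and left out read pairs that fall on more than 1 gene. Of the 5329 exonic bases of *Cd247*, 3007 are shared with *Pou2f1* on the opposite strand and 206 with *Gm16565*, which leaves 2116 bases that are its own. Its count, and any level per length, is therefore less certain than those of the other CD3 chains.

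Among the coreceptors, *Cd8a* and *Cd8b1* encode the α and β chains of CD8 and lie close to each other on chromosome 6. *Cd8a* (chr6:71373427-71379173, plus strand) had 80, 80 and 70 read pairs in *R/R* lungs and 132, 106 and 202 in WT lungs, or 4.44, 4.78 and 4.12 CPM and 8.02, 5.85 and 11.8 CPM. The *R/R* lungs were close together (4.45 ± 0.33 CPM, SD, n = 3) and the WT lungs were spread out (8.56 ± 3.03 CPM, SD, n = 3), with WT lung 3 the highest and WT lung 2 the lowest. In edgeR the log2 fold change was -0.94 (standard error 0.23, 95% interval -1.45 to -0.43), with an adjusted p of 0.0721. Without WT lung 3 it was -0.64, with an adjusted p of 0.116 by edgeR. Without WT lung 2 it was -1.16, with an adjusted p of 0.0286 by edgeR, past the threshold.

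*Cd8b1* (chr6:71322788-71337494, plus strand) was measured at 3.83, 3.41 and 2.71 CPM in *R/R* lungs and at 4.98, 4.91 and 7.96 CPM in WT lungs. WT lung 3 was again the highest, and the genotypes did not overlap. This gave a log2 fold change of -0.84 (standard error 0.23, 95% interval -1.35 to -0.33) and an adjusted p of 0.109 by edgeR. The β chain is largely restricted to T cells, whereas the α chain is also made by some dendritic cells. The number of *Cd8a* read pairs for each *Cd8b1* read pair was 1.16 to 1.52 in *R/R* lungs and 1.19 to 1.61 in WT lungs, and the genotypes overlapped. Among dendritic cell genes, *Xcr1*, a chemokine receptor of cross-presenting dendritic cells, was at 2.33 to 3.12 CPM in *R/R* lungs and 2.32 to 2.63 CPM in WT lungs. *Clec9a* was at 46.9 to 53.1 and 48.4 to 58.7 CPM, and *Batf3* at 1.61 to 2.44 and 1.71 to 2.34 CPM. Their log2 fold changes were 0.21, -0.07 and 0.01, each with overlap. The part of dendritic cells in the level of *Cd8a* was not tested.

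*Cd4* (chr6:124864692-124888221, minus strand) was measured at 6.22, 7.05 and 5.42 CPM in *R/R* lungs and at 6.44, 7.01 and 7.73 CPM in WT lungs. The genotypes overlapped, with *R/R* lung 2 above WT lungs 1 and 2 (exact two-sided permutation test, p = 0.3). The log2 fold change was -0.18 (standard error 0.16, 95% interval -0.53 to 0.17), with an adjusted p of 0.68 by edgeR.

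*Cd4* and the *Cd8* genes mark separate lineages among T cells, and their ratio within a lung needs no scaling between lungs. In lung RNA the cells that made these read pairs are not known, so the ratio compares transcripts and not T cell numbers. For each *Cd8a* read pair there were 1.40, 1.48 and 1.31 *Cd4* read pairs in *R/R* lungs and 0.803, 1.20 and 0.653 in WT lungs. Every *R/R* lung had the higher ratio, and in WT lungs 1 and 3 *Cd8a* had more read pairs than *Cd4*. The mean log2 ratio was 0.48 ± 0.08 in *R/R* lungs and -0.22 ± 0.44 in WT lungs (SD, n = 3 each), a 1.62-fold difference. For *Cd8b1* the ratios were 1.62, 2.07 and 2 in *R/R* lungs and 1.29, 1.43 and 0.971 in WT lungs, a 1.55-fold difference, again without overlap. Both ratios gave p = 0.1 in an exact two-sided permutation test over lungs, before and after adjustment over the 2 ratios, which is the smallest p that 3 lungs against 3 allow. Both ratios share *Cd4*, so the second is not a separate line of evidence. Without WT lung 3 the differences in log2 ratio were 0.51 for *Cd8a* and 0.47 for *Cd8b1*, and without WT lung 2 they were 0.94 and 0.75.

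The coreceptors were also set against the summed read pairs of *Cd3d*, *Cd3e* and *Cd3g*, as a description with no test. *Cd4* amounted to 0.557 to 0.599 of that sum in *R/R* lungs and to 0.460 to 0.487 in WT lungs, a range narrow within each genotype and separate between them. *Cd8a* amounted to 0.377 to 0.449 in *R/R* lungs and to 0.406 to 0.704 in WT lungs. *Cd8b1* amounted to 0.269 to 0.369 and 0.341 to 0.474, so for both *Cd8* genes the genotypes overlapped on this scale.

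**Figure D2:**
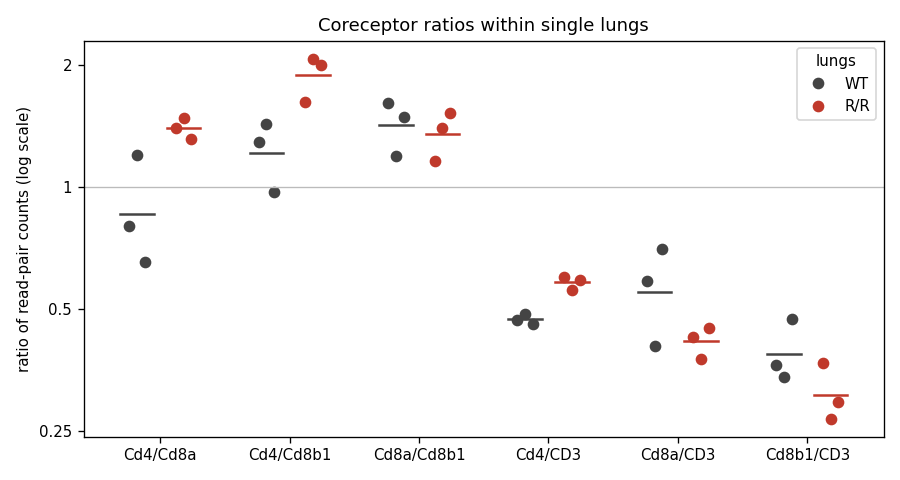
Ratios of read-pair counts within single lungs (y axis, log scale) for WT lungs (grey) and R/R lungs (red), where CD3 stands for the sum of Cd3d, Cd3e and Cd3g. Points are single lungs and short lines are the means of the log ratios. Both Cd4 to Cd8 ratios and the ratio of Cd4 to CD3 are higher in every R/R lung than in any WT lung, and the other ratios overlap.

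The kinases are shared by both lineages and are also used by NK cells. *Lck* (chr4:129548344-129573641, minus strand), the SRC-family kinase bound to the coreceptors, was measured at 10.2, 9.62 and 8.95 CPM in *R/R* lungs and at 15.2, 10.3 and 15.9 CPM in WT lungs. WT lung 2 was only slightly above *R/R* lung 1, and the other WT lungs were far above. In edgeR the log2 fold change was -0.52 (standard error 0.16, 95% interval -0.87 to -0.17), with an adjusted p of 0.148. Without WT lung 2 it was -0.70, with an adjusted p of 0.0399 by edgeR, past the threshold.

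*Zap70* (chr1:36761798-36782818, plus strand), the SYK-family kinase that binds the phosphorylated chains, was measured at 6.44, 7.17 and 6.83 CPM in *R/R* lungs and at 9.11, 8.11 and 9.13 CPM in WT lungs. Both genotypes were tight and did not overlap. This gave a log2 fold change of -0.37 (standard error 0.13, 95% interval -0.66 to -0.07) and an adjusted p of 0.232 by edgeR. Set against the summed CD3 read pairs, the mean log2 ratio differed between the genotypes by -0.02 for *Lck* and by 0.12 for *Zap70*, both less than the SD within either genotype.

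Per kilobase of exon, *Lck* had the highest level of the 9 in both genotypes, with 4.72 CPM per kb in WT lungs and 3.28 in *R/R* lungs. In WT lungs it was followed by *Cd8b1* (4.01), *Zap70* (2.94), *Cd8a* (2.35), *Cd3d* (2.31), *Cd4* (1.75), *Cd3g* (1.51), *Cd247* (1.45) and *Cd3e* (1.43). In this order each gene differed from the next by less than the larger of their SDs between lungs, except *Cd4* from *Cd3g*. In *R/R* lungs *Zap70* (2.28) came before *Cd8b1* (2.24), and *Cd4* (1.55) came before *Cd3d* (1.35) and *Cd8a* (1.22). In *R/R* lungs, *Lck* and *Zap70* differed by more than that spread, as did *Cd8b1* and *Cd4*, and the other neighbours did not. These levels divide *Cd247* by all of its exonic bases, although read pairs on the shared ones were not counted. Over its unshared bases alone it was at 3.65 CPM per kb in WT lungs and 3 in *R/R* lungs, which would place it after *Cd8b1* in WT lungs and after *Lck* in *R/R* lungs. Exon length is the sum over all annotated transcripts, which lowers the level of genes with long rarely used exons.

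The 9 genes varied together over the 6 lungs to different degrees. The correlation with the mean of the 9 (log2 CPM, n = 6 lungs, each gene itself part of the mean) was highest for *Cd8b1* (Pearson r = 0.972) and *Cd8a* (0.953) and lowest for *Cd247* (0.538). *Cd8a* and *Lck* were close to each other (r = 0.945), while *Cd3e* and *Cd247* were nearly unrelated (r = 0.053). All genes share the depth and scaling of their lung, and the genotype difference is part of each r. Of 14361 other genes whose mean log2 CPM was 1 or more, the 5 most like the mean of the 9 were *Dock11* (r = 0.992), *Ccr7* (0.991), *Hacd4* (0.99), *Gm13816* (0.99) and *Anks6* (0.987). These are the top of 14361 values over only 6 lungs, so some high r can arise by ranking alone, and the likeness was not tested. *Dock11* encodes an activator of the GTPase CDC42, and *Ccr7* the chemokine receptor with which naive T cells and dendritic cells enter lymph nodes. *Ccr7* was at 12.4, 12.7 and 11.3 CPM in *R/R* lungs and 14.9, 13.7 and 15.9 CPM in WT lungs (log2 fold change -0.29, edgeR adjusted p = 0.238).

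The antigen-binding chains of the receptor were measured through their constant regions. *Trac*, the constant region of the α chain (chr14:54220521-54224206), had 104, 70 and 52 read pairs in *R/R* lungs and 123, 114 and 160 in WT lungs. Its log2 fold change was -0.82 (standard error 0.23), with an adjusted p of 0.115 by edgeR, and the genotypes did not overlap. Of the 2 alternative β chain constant regions, *Trbc2* was at 6.60, 6.28 and 5.30 CPM in *R/R* lungs and 8.14, 8.67 and 13.3 CPM in WT lungs (log2 fold change -0.73, edgeR adjusted p = 0.0985). *Trbc1* was at 5.16, 4.48 and 4.48 CPM in *R/R* lungs and 5.53, 5.68 and 7.61 CPM in WT lungs (log2 fold change -0.41, edgeR adjusted p = 0.328). These 2 genes are nearly identical in coding sequence, so the split of reads between them is uncertain.

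The γδ receptor genes had estimates near or above 0. *Trdc*, the δ constant region, was at 2, 1.55 and 0.707 CPM in *R/R* lungs and 1.64, 1.05 and 1.70 CPM in WT lungs (log2 fold change -0.03, 95% interval -0.86 to 0.80, edgeR adjusted p = 0.982), an interval that includes the estimate of *Trac*. *Tcrg-C1* had 16, 17 and 17 read pairs in *R/R* lungs and 12, 8 and 16 in WT lungs, *Tcrg-C4* had 11, 11 and 8 against 17, 4 and 4, and *Tcrg-C2*, with 12, 8 and 5 against 8, 7 and 6, had too few to be tested. Of the 6 constant regions tested, 0 passed the threshold in edgeR, 3 had an unadjusted p under 0.05 and 3 did not overlap between genotypes. These were *Trac*, *Trbc1* and *Trbc2* in both cases, all lower in *R/R* lungs. Of all genes, 7.68% were lower at that unadjusted p and 9.50% did not overlap with *R/R* lower. Limma-voom called 0 of the 6, and DESeq2 called 2, *Trac* (adjusted p = 0.0255) and *Trbc2* (adjusted p = 0.0218).

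**Figure D3:**
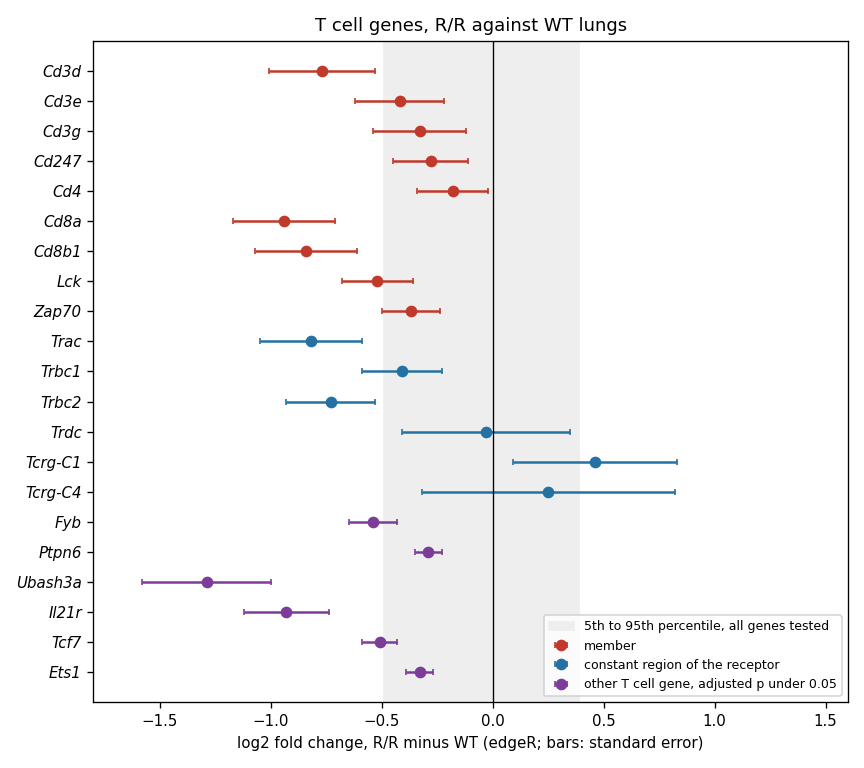
Log2 fold change of R/R against WT lungs (x axis, edgeR, bars give the standard error) for the 9 genes (red), the receptor constant regions (blue) and 6 other T cell genes with an adjusted p under 0.05 (purple). The grey band, from -0.49 to 0.39, holds the middle of all genes tested (5th to 95th percentile). Cd8a, Cd8b1, Cd3d, Lck, Trac and Trbc2 lie to the left of the band, and Cd4, Cd247 and the γδ constant regions Trdc and Tcrg-C4 lie within it.

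The variable (V) segments, which give each receptor its specificity, were counted after the values of the other genes had been seen. Over 108 α segments, 21, 13 and 14 read pairs were counted in *R/R* lungs and 36, 37 and 36 in WT lungs. They fell on 16, 11 and 9 different segments in *R/R* lungs and on 22, 23 and 23 in WT lungs. Over 22 β segments, 52, 47 and 36 read pairs were counted in *R/R* lungs and 83, 63 and 71 in WT lungs, on 14, 14 and 12 segments and on 18, 19 and 16 segments. For both chains the genotypes did not overlap in either measure, with the *R/R* lungs lower. The number of segments detected depends on the number of read pairs, so it is no measure of repertoire diversity here. The δ segments had 3 to 11 read pairs in *R/R* lungs and 3 to 6 in WT lungs, and the γ segments 5 to 11 and 5 to 16, with the genotypes overlapping.

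**Figure D4:**
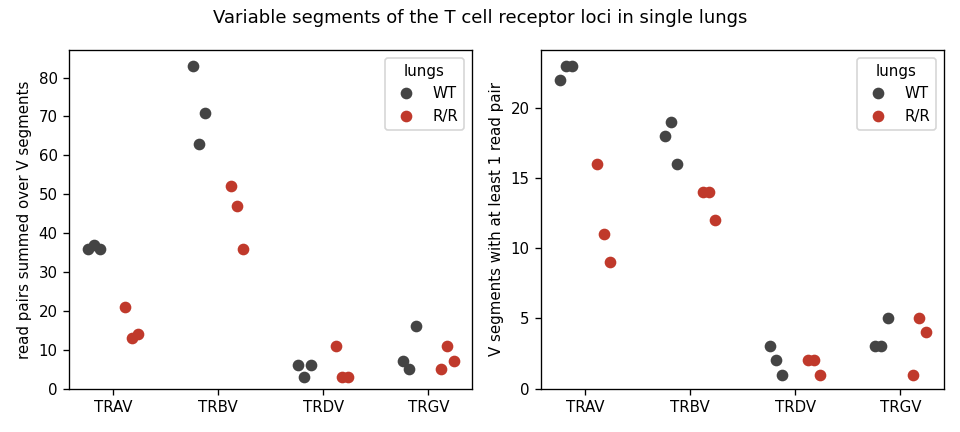
Read pairs summed over the V segments of each T cell receptor locus (left) and the number of V segments with at least 1 read pair (right), for WT lungs (grey) and R/R lungs (red), each point a lung. TRAV, TRBV, TRDV and TRGV are the V segments of the α, β, δ and γ chains. The α and β segments separate the genotypes, and the δ and γ segments overlap.

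Further along the pathway, 46 genes that act with or after these kinases were all tested, of which 38 had lower and 8 had higher estimates in *R/R* lungs. Their median log2 fold change was -0.17. Of these, 3 fell and 0 rose at an adjusted p of 0.05, 15 had an unadjusted p under 0.05, all lower, and 19 did not overlap with *R/R* lower. Among all 17120 genes tested, 8351 had lower estimates and 1.10% fell at that adjusted p. With *R/R* lower, 7.68% of all genes had an unadjusted p under 0.05 and 9.50% did not overlap. *Fyb*, an adaptor that links the receptor to integrins, was at 15.6, 17.0 and 20.4 CPM in *R/R* lungs and 23.9, 24.7 and 28.5 CPM in WT lungs, and fell by 0.54 on the log2 scale (edgeR adjusted p = 0.0395). *Ptpn6*, the phosphatase SHP-1 of many blood cells, was at 56.8, 52.4 and 56.3 CPM and 68.6, 65.0 and 68.2 CPM, and fell by 0.29 on the log2 scale (edgeR adjusted p = 0.0444). *Ubash3a*, a phosphatase family member that dampens receptor signalling, was at 0.721, 0.957 and 1.12 CPM and 2.07, 2.21 and 2.58 CPM, and fell by 1.29 on the log2 scale (edgeR adjusted p = 0.0493). *Ptpn6* and *Ubash3a* are inhibitors of signalling. These calls are close to the threshold. The count was 0 without *R/R* lung 1, *R/R* lung 2, WT lung 1 or WT lung 2, and 1 without *R/R* lung 3 or WT lung 3.

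Surface markers of T cells outside the CD3 complex were not uniform. *Cd5*, which restrains receptor signalling, was at 3.61, 3.83 and 2.59 CPM in *R/R* lungs and 6.20, 5.02 and 5.74 CPM in WT lungs (log2 fold change -0.75, edgeR adjusted p = 0.0901). *Cd28*, the co-stimulatory receptor, was at 3.77, 4.07 and 3.06 CPM and 4.43, 4.97 and 4.68 CPM (log2 fold change -0.37, edgeR adjusted p = 0.406). *Cd2*, an adhesion molecule of T and NK cells, was at 15.1, 14.7 and 13.6 CPM and 14.6, 14.1 and 14.5 CPM, with overlap between the genotypes (log2 fold change 0.01, edgeR adjusted p = 0.982).

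Genes of naive and recirculating T cells had lower estimates in 11 of 12 cases, with a median log2 fold change of -0.31. At an adjusted p of 0.05, 3 of them fell, beside 1.10% of all genes. The most abundant of the 12 were *Ets1*, *S1pr1* and *Klf2*, with genotype means of 235 to 423 CPM. *Lck* had genotype means of 9.6 and 13.8 CPM. *Klf2* was the gene with a higher estimate (0.38). Which cells made the read pairs of these abundant genes was not tested. *Tcf7*, the transcription factor TCF-1 of naive and memory T cells, was at 43.1, 45.6 and 37.8 CPM in *R/R* lungs and 60.8, 59.1 and 60.6 CPM in WT lungs (log2 fold change -0.51 ± 0.08 (standard error), edgeR adjusted p = 0.00918), and kept its call without any one lung. *Ets1*, an ETS factor of lymphocytes and endothelium, was at 347, 346 and 314 CPM and 416, 444 and 410 CPM (log2 fold change -0.33, edgeR adjusted p = 0.0302). *Ets1* lost its call without any one lung other than WT lung 3 (adjusted p 0.0509 to 0.114 by edgeR). *Ets1* at this level is not a gene of T cells alone. *Tcf7* was at 19.9 CPM per kb in WT lungs, beside 4.72 for *Lck*, the highest of the 9 genes. Which cells made the *Tcf7* read pairs was not tested.

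Other genes of the T cell lineages are given by counts. Of 8 tested genes of CD4 T cells, 4 had lower and 4 had higher estimates, with a median log2 fold change of -0.13. *Il21r*, the interleukin-21 receptor, which B cells and NK cells also carry, fell from 10.7, 8.67 and 11.1 CPM in WT lungs to 6.10, 5.98 and 3.83 CPM in *R/R* lungs (log2 fold change -0.93, edgeR adjusted p = 0.0341). Without *R/R* lung 2, *R/R* lung 3 or WT lung 1 its adjusted p was 0.0883, 0.0789 and 0.131 by edgeR. Of 7 tested genes of CD8 and cytotoxic T cells, 5 had lower and 2 had higher estimates, with a median of -0.23. None of the 7 passed the threshold in edgeR, limma-voom or DESeq2 (1 at an unadjusted p of 0.05 in edgeR). *Cxcr3*, a chemokine receptor of effector T cells, had a log2 fold change of -0.72 (edgeR adjusted p = 0.359), and *Ccl5*, a chemokine of cytotoxic cells, of -0.47 (edgeR adjusted p = 0.301). At the other end, *Eomes*, a transcription factor of memory CD8 and NK cells, had 0.11 and *Cd96*, a receptor of T and NK cells, 0.23. Among γδ T cell genes 0 of 5 tested passed the threshold in edgeR, limma-voom or DESeq2 (1 at an unadjusted p of 0.05 in edgeR), with *Sox13* at -0.24 (edgeR adjusted p = 0.159) and *Cd163l1* at 0.41 (edgeR adjusted p = 0.63). *Sox13*, the gene with that unadjusted p, was at 139 to 185 CPM over the 6 lungs, beside 0.707 to 2 CPM for *Trdc*. Which cells made the *Sox13* read pairs was not tested.

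Markers of other cell types that a piece of lung can hold are given beside these results, and their part in them was not tested. Of all 17120 genes tested, 8351 had lower estimates, 1.75% passed the threshold in edgeR and 2433 had an unadjusted p under 0.05. Summed over the list, the 9 genes of the receptor complex were at 42.6 to 50.8 CPM in *R/R* lungs and 58.9 to 76.0 CPM in WT lungs. The 12 B cell genes all had lower estimates, with a median log2 fold change of -0.63. Of these, 8 fell at an adjusted p of 0.05 and 12 did not overlap, beside 1.10% and 9.50% of all genes. Their summed level was 237 to 307 CPM in *R/R* lungs and 407 to 499 CPM in WT lungs. *Ms4a1*, which encodes CD20, was at 11.4, 12.2 and 9.31 CPM in *R/R* lungs and 25.4, 19.4 and 20.5 CPM in WT lungs, and fell by 0.99 on the log2 scale (edgeR adjusted p = 0.00675). *Ighm*, *Cd37* and *Spib* fell by 0.61, 0.53 and 1.08 (edgeR adjusted p = 0.00893, 0.0104 and 0.0111). *Cd37* lost its call without *R/R* lung 2 or WT lung 1 (edgeR adjusted p = 0.0562 and 0.0504), and *Spib* without *R/R* lung 2 or *R/R* lung 3 (edgeR adjusted p = 0.064 and 0.0513).

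NK cells also use *Cd247*, *Lck* and *Zap70*, and their part in the levels of these genes was not tested. The NK cell genes had higher estimates in 8 of 10 cases, with a median log2 fold change of 0.26. Of these 10, 0 passed the threshold in edgeR (1 at an unadjusted p of 0.05), 0 in limma-voom and 1 in DESeq2. Their summed level was 37.8 to 48.2 CPM in *R/R* lungs and 23.8 to 49.3 CPM in WT lungs, lowest in WT lung 2. *Klra8*, the receptor Ly49H, was higher in every *R/R* lung (3.44, 3.35 and 2.71 CPM against 1.88, 0.938 and 1.64 CPM, log2 fold change 1.10, edgeR adjusted p = 0.0839). *Klra4* (0.59), *Gzma* (0.07) and *Prf1* (-0.02) had overlapping levels, and the value of *Klra4* was 1.45 without WT lung 1 and 0.17 without WT lung 2. Ly49 genes are near-identical copies of each other, which makes their counts uncertain.

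Neutrophil genes set WT lung 2 apart. The summed level of 8 genes was 109, 77.6 and 76.3 CPM in *R/R* lungs and 219, 78.6 and 207 CPM in WT lungs, and WT lung 2 is also the WT lung with the lowest *Cd8a* and *Lck*. It was the lowest WT lung for *Cd3g* and *Zap70* too, and by a narrow gap for *Cd3e* and *Cd8b1*. For *Cd3d* and *Cd4* it was the middle WT lung, and for *Cd247* the highest (8.28 CPM). All 6 tested had lower estimates (median -1.01) and 0 passed the threshold in edgeR (6 at an unadjusted p of 0.05), beside 0 in limma-voom and 1 in DESeq2. *Cxcr2* had a log2 fold change of -1.31, *S100a8* of -1.19, *Mmp9* of -0.80 and *Csf3r* of -0.71, each with overlap. Without WT lung 2 these 4 genes passed the threshold, with -1.68, -1.61, -1.11 and -1.01 (edgeR adjusted p = 0.0104, 0.00758, 0.00385 and 0.00601), as *Cd8a* and *Lck* did. Without that lung all 9 genes of the receptor complex still had lower estimates (median -0.46).

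Erythroid genes, a measure of blood left in the lung, were at 1170 to 2220 CPM in *R/R* lungs and 2430 to 3220 CPM in WT lungs in sum. All 6 tested had lower estimates, and 6 had an unadjusted p under 0.05 in edgeR. *Hba-a1*, which encodes an α-globin, fell by 0.78 on the log2 scale (edgeR adjusted p = 0.0478), a call that DESeq2 did not give (adjusted p = 0.0824) and that was lost without *R/R* lung 1, *R/R* lung 2, WT lung 1 or WT lung 2 (edgeR adjusted p 0.0567 to 0.169). *R/R* lung 1 had the least erythroid RNA and *R/R* lung 3 the most among the *R/R* lungs. The summed level of the 9 genes of the receptor complex was lowest in *R/R* lung 3. The part of blood in the levels of these 9 genes was not tested.

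Dendritic cell genes had lower estimates in 4 and higher estimates in 7 of 11 cases (median 0.09, 0 past the threshold in edgeR, limma-voom and DESeq2, and 1 at an unadjusted p of 0.05 in edgeR). Their extremes were *Cd209a* (-0.33), *Zbtb46* (-0.12), *Ccl22* (0.34) and *Clec10a* (0.36). Among 12 genes of monocytes and macrophages, *Mrc1*, the mannose receptor, rose by 0.42 on the log2 scale (edgeR adjusted p = 0.0486) and the median was 0.12. *Mrc1* kept its call without WT lung 3 but lost it without any other lung (edgeR adjusted p 0.0917 to 0.151). It also missed the threshold with limma-voom (adjusted p = 0.0506), without TMM (edgeR, 0.0516) and with a filter of 1 CPM in 3 libraries (edgeR, 0.0533). The lung genes summed to 39000 to 41800 CPM in *R/R* lungs and 32000 to 39700 CPM in WT lungs, with a median of 0.12. Of these genes, 0 passed the threshold in edgeR, 0 in limma-voom and 2 in DESeq2. At an unadjusted p of 0.05 in edgeR, 4 were higher and 2 were lower. They included *Col3a1* (-0.26), *Col1a1* (-0.21), *Scgb1a1* (0.31) and *Hopx* (0.32).

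Thymus and lymph nodes lie next to the lung and are rich in the same T cell genes. None of 9 thymus genes had enough counts to be tested, and their summed level was 0.499 to 1.08 CPM in *R/R* lungs and 0.828 to 1.28 CPM in WT lungs. *Rag2*, which recombines receptor genes in developing lymphocytes, had 0 read pairs in all 6 lungs, which allows up to 3 read pairs or 0.166 to 0.182 CPM a lung. *Rag1* had 1, 0 and 1 read pairs in *R/R* lungs and 7, 4 and 3 in WT lungs. The lymph node chemokines *Ccl19* and *Ccl21a* had at most 3 read pairs and 1 read pair in any lung. Counting dropped read pairs that map to several places, which can lower the count of a gene with close copies. The part of lymph node tissue in the levels of the 9 genes was not tested. Of 3 tested lymph node genes *Fcer2a*, which B cells also carry, fell by 0.51 on the log2 scale (edgeR adjusted p = 0.0341). This call was lost without *R/R* lung 2, *R/R* lung 3, WT lung 1 or WT lung 2 (edgeR adjusted p 0.0925 to 0.148).

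**Figure D5:**
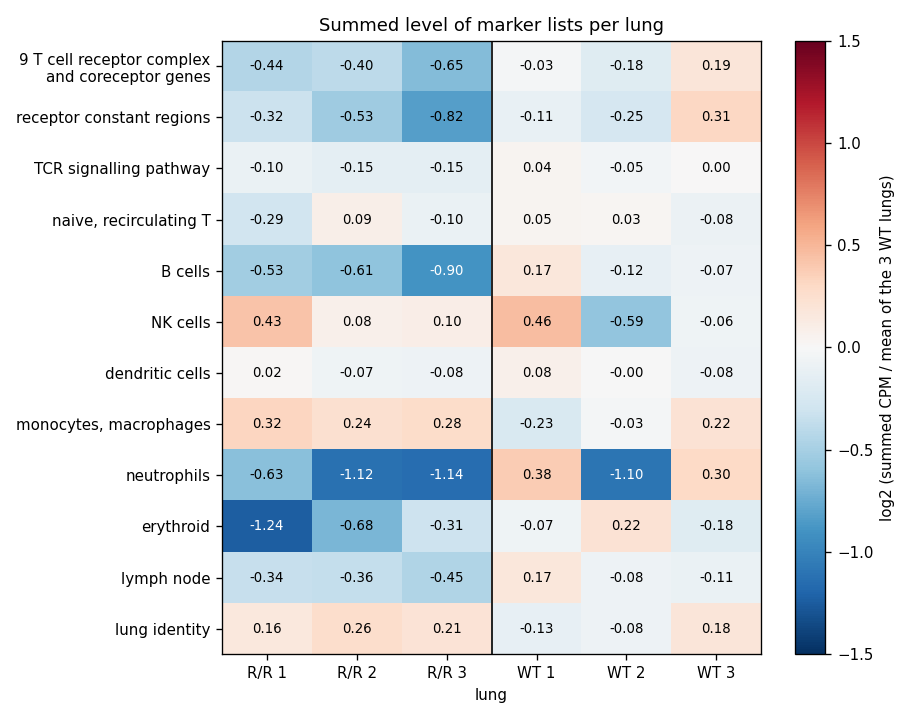
Summed CPM of each marker list in each lung, as the log2 of its ratio to the mean of the 3 WT lungs (colour scale and printed values). A sum follows its most abundant genes. The monocyte and macrophage sum is mostly Lyz2 (5030 to 5290 CPM in R/R and 3520 to 4900 CPM in WT lungs), and of its 12 genes 5 had lower and 7 had higher estimates. The lymph node sum is mostly Fcer2a (11.6 to 13.1 and 16.6 to 18.6 CPM), which B cells also carry. The signalling pathway sum holds genes as abundant as Dgkz (243 to 259 and 245 to 251 CPM). The naive and recirculating T cell sum is mostly S1pr1, Klf2 and Ets1. S1pr1 was at 263 to 319 and 271 to 338 CPM, and Klf2 at 177 to 405 and 193 to 282 CPM. The 9 genes of the receptor complex (-0.65 to -0.40 in R/R lungs), the constant regions, the signalling pathway, and the B cell (-0.90 to -0.53), erythroid (-1.24 to -0.31) and lymph node (-0.45 to -0.34) lists are below every WT lung, the monocyte and macrophage list (0.24 to 0.32) is above every WT lung, and the other lists overlap.

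*Rbm47* itself, the gene that carries the substitutions, was at 32.7, 33.5 and 34.1 CPM in *R/R* lungs and 28.8, 30.5 and 34.4 CPM in WT lungs (log2 fold change 0.10, edgeR adjusted p = 0.66). Gene counts do not show the altered codons, so they cannot check the genotype labels.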

How the data were processed

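Lungs of 3 R/R and 3 WT mice were sequenced. The sample labels gave the genotype and number of each lung. The sources differ on extraction, for which the labels name RNeasy and the supplement Trizol.

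Per the submitters' processing notes, alignment was to mm10 (GRCm38) by HISAT2 2.1.0. The values the authors deposited are raw counts, without normalization, of the read pairs on each gene (featureCounts 2.0.1 with GENCODE annotation, per the file header). Counting used no strand and dropped read pairs that map to several places or fall on more than 1 gene. The other deposited values used are the exon lengths per gene. One count column was recorded under another unit name because a comment line precedes the column names. It holds whole counts like the other 5.

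Symbols came from the GENCODE annotation of the same assembly in a nearby release, with 55141 of 56262 identifiers matched. In R 4.3.3, edgeR 4.0.16 was used with filterByExpr (minimum count 10, minimum total 15), TMM and glmQLFit with glmQLFTest, and p-values were adjusted by Benjamini-Hochberg over 17120 genes. Standard errors and 95% intervals came from the quasi-likelihood test. Ratios and single genes were compared by exact two-sided permutation with a prior count of 0.5. Libraries of a genotype differed by more than sampling noise (chi-square over degrees of freedom 5.65 to 9.09). The biological coefficient of variation was 8.62%. Floors from counts cover counting error only. The tests were run on simulated data first. Alternatives were limma-voom 3.58.1, DESeq2 1.42.0, other scalings and filters, the replicate number as a block, and each lung left out in turn.

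The members and gene lists were chosen with earlier results of these data known. Named were all members, all constant regions, the genes of each list past an adjusted p of 0.05 (at most 5), or otherwise those with the 2 lowest and 2 highest fold changes, the 5 genes most like the members, and Rbm47. Some genes that this rule names are not reported here. The other genes (Cd2, Cd5, Cd28, Xcr1, Clec9a, Batf3, Rag1, Rag2, Ccl19 and Ccl21a) were named as defining markers of a cell type or organ. Lyz2, Dgkz, S1pr1 and Klf2 were named for their share of the sum of a list. In each list a gene with a mean log2 CPM under 0 was not named unless it passed. Promoter sequences were from RefSeq (GRCm38.p6).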

Additional observations from a re-analysis of the deposited data

How the results depend on the processing

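All 9 genes of the receptor complex had lower estimates in R/R lungs in all 13 alternative fits. The number past an adjusted p of 0.05 was 0 of 9, and it became 2 with DESeq2 (Cd8a, -0.95, adjusted p = 0.00591, and Cd8b1, -0.84, adjusted p = 0.0382), where 541 of 17120 genes (3.16%) passed. It became 4 with no filter beyond 1 count in total (Cd3d -0.76, Cd8a -0.94, Cd8b1 -0.84 and Lck -0.52, edgeR adjusted p = 0.035, 1.39e-05, 0.00239 and 0.00681), where 1109 of 31428 genes (3.53%) passed. It was 0 with limma-voom, without TMM, with DESeq2 size factors and with a filter of 1 CPM in 3 libraries. Leaving out each lung in turn, it was 0 to 2, with 2 only without WT lung 2, where 110 of 17392 genes (0.632%) passed. Over these leave-outs the log2 fold change of Cd8a was -1.16 to -0.64 and that of Lck -0.70 to -0.41. The count of pathway genes past the threshold, 3 of 46, was 1 with limma-voom, 8 with no filter and 0 to 1 with each lung left out. The cause of these changes was not tested. In the no-filter fit, the quasi-dispersion of Cd8a was 0.816 instead of 1.34. The median prior degrees of freedom were infinite there instead of 7.66. At an infinite value, a gene's own variation between lungs carries no weight in its test. In that fit S100a8, which overlapped between the genotypes, had an edgeR adjusted p of 7.4e-24, so its calls are less certain. The difference in log2 ratio of Cd4 to Cd8a was 0.51 to 0.94 and that of Cd4 to Cd8b1 0.47 to 0.75 over the leave-outs, with the same direction each time.

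Over all genes tested, the deviations of same-numbered lungs from their genotype means correlated at -0.0139, -0.00355 and -0.0148. With 3 lungs a genotype this cannot show whether the replicate numbers pair the lungs. With the replicate number as a block, 0 of the 9 genes and 446 of all genes passed in edgeR, beside 300 of all genes without it. The neutrophil genes Cxcr2 (-1.23), S100a8 (-1.08) and Csf3r (-0.65) passed with the block (edgeR adjusted p = 0.0166, 0.0383 and 0.0244), which they did not without it. The blocked differences in log2 ratio were 0.70 and 0.63 (exact permutation p = 0.25, the smallest that 3 pairs allow). Estimates near 0 changed sign: Prf1 was 0.09 with limma-voom, 0.04 with the block and -0.25 to 0.44 over the leave-outs, where Eomes was -0.24 to 0.55, Gzma -0.17 to 0.36 and Trdc -0.37 to 0.29. With 3 lungs a genotype and 36 to 271 read pairs a lung for each of the 9 genes, the estimates keep wide intervals.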

Other observations

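Within the WT lungs, Cd8a, Cd8b1, Trac and Trbc2 were all highest in WT lung 3, with 202, 136, 160 and 228 read pairs. Cd3g and Cd247 did not share this order, with 5.03 and 6.73 CPM in WT lung 3 beside 5.10 and 8.14 CPM in WT lung 1. Within the R/R lungs, lung 3 had the lowest level of every member except Cd3e and Zap70, and the fewest read pairs for Trac (52) and Trdc (12). The ratio of Trbc2 to Trbc1 was 1.28, 1.40 and 1.18 in R/R lungs and 1.47, 1.52 and 1.75 in WT lungs, without overlap and not tested.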
